A study of Mus musculus with 9 samples.

Results

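Microglia of untreated mice were described here from 3 libraries, the group labelled Normal, out of 9 libraries in the whole series. The mice were wild-type female C57BL/6N animals of 12 weeks that received no injection and no other treatment, and the cells were taken at the sampling time labelled day 1. Each library came from a pool of 3 samples, so that differences between single animals were not measured. The cells were sorted from enzyme-digested brain as positive for CD45, CD11b and P2ry12, which means that P2ry12 and Itgam (the gene for CD11b) were part of the selection and their presence was no finding. The other libraries of the series came from mice given antibody against aquaporin-4 with complement, with or without clodronate liposomes, and were not used.

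Microglia are the resident macrophages of brain tissue. They arise from yolk sac precursors, need signalling through the receptor Csf1r to survive, and keep their identity under the influence of TGF-beta. In the healthy brain they survey their surroundings with motile processes, sense nucleotides and fractalkine, and take up debris and synaptic material into a large lysosomal system.

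The libraries were made by QuantSeq, which reads the 3′ end of polyadenylated transcripts. The 3 libraries held 7059605, 6878869 and 5788234 counts for replicates 1, 2 and 3, and this order is kept wherever 3 values are given. A single ribosomal RNA precursor entry, Rn45s, took 31.0%, 22.3% and 16.1% of them (95% Wilson intervals 30.9 to 31.0%, 22.3 to 22.4% and 16.05 to 16.11%), a mean of 23.1% ± 7.48 (SD, n = 3). Rn45s was therefore left out, which left 4872561, 5341446 and 4857544 counts. All levels are CPM, the count of a gene scaled to the remaining counts of its library, after scaling by the trimmed mean of M values, and errors are standard deviations over the 3 libraries. CPM was not divided by transcript length, since each transcript is read at its end and not along its length. In these bulk samples a higher or lower level can come from more or fewer cells of a type or from more or less RNA per cell, and these cannot be told apart.

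Of 23237 genes in the files, 11768 (50.6%) had a count in every library and 7200 (31.0%) had none in any. At least 1 CPM was reached in all 3 libraries by 10830 genes, at least 10 CPM by 7577, at least 100 CPM by 1668 and at least 1000 CPM by 72. The 10 most abundant genes held 12.9% ± 0.696 of the counts, the 100 most abundant 28.3% ± 0.769 and the 1000 most abundant 59.4% ± 0.947 (n = 3). In the 3 libraries 605, 556 and 538 genes sufficed to hold 50% of the counts. The genes at 1000 CPM or more on average, 89 in number, carried 27.3% ± 0.795 of the counts, while the 1918 genes between 100 and 1000 CPM carried 45.6% ± 0.121.

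Cst3, which encodes the secreted cysteine protease inhibitor cystatin C, had 28134, 28662 and 30924 CPM and the highest mean of all genes. Malat1, a long non-coding RNA kept in the nucleus, followed with 19587, 31275 and 34224 CPM. Malat1 ranked first in replicates 2 and 3 and Cst3 in replicate 1, where Malat1 was lowest, and the ranges of these 2 genes overlapped. Cx3cr1, the fractalkine receptor, reached 13411, 15279 and 15744 CPM, and Csf1r, the receptor for CSF1 and IL-34, 10633, 14774 and 11205 CPM.

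Behind these genes came Actb at 10540 ± 2455 CPM, the cathepsins Ctss at 10262 ± 982 CPM and Ctsd at 8704 ± 1567 CPM, and Tmsb4x, which binds actin monomers, at 5184 ± 1706 CPM. Tmsb4x was at 3544, 5060.1 and 6948 CPM and showed the largest ratio between libraries among the 40 most abundant genes, 1.96. Further down were C1qc, the matricellular protein gene Sparc, C1qa, Serinc3, the saposin precursor Psap, Laptm5, Tmem119, Selplg and C1qb. They ran from 4728 CPM for C1qc to 3464 CPM for C1qb. Marcks, B2m, P2ry12, Fcrls, Itm2b, Rgs2, P2ry13, Mef2c, 4632428N05Rik (the entry for Vsir, which encodes the checkpoint protein VISTA), Epb4.1l2 and Sirpa also came within the first 30, from 3261 CPM for Marcks down to 2064 CPM for Sirpa. Glul, Lgmn, Jun, Rrbp1, Son, Gnai2, Srrm2, Siglech and Hspa5 were among the last 10, between 1889.6 CPM and 1679.9 CPM.

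**Figure D1:**
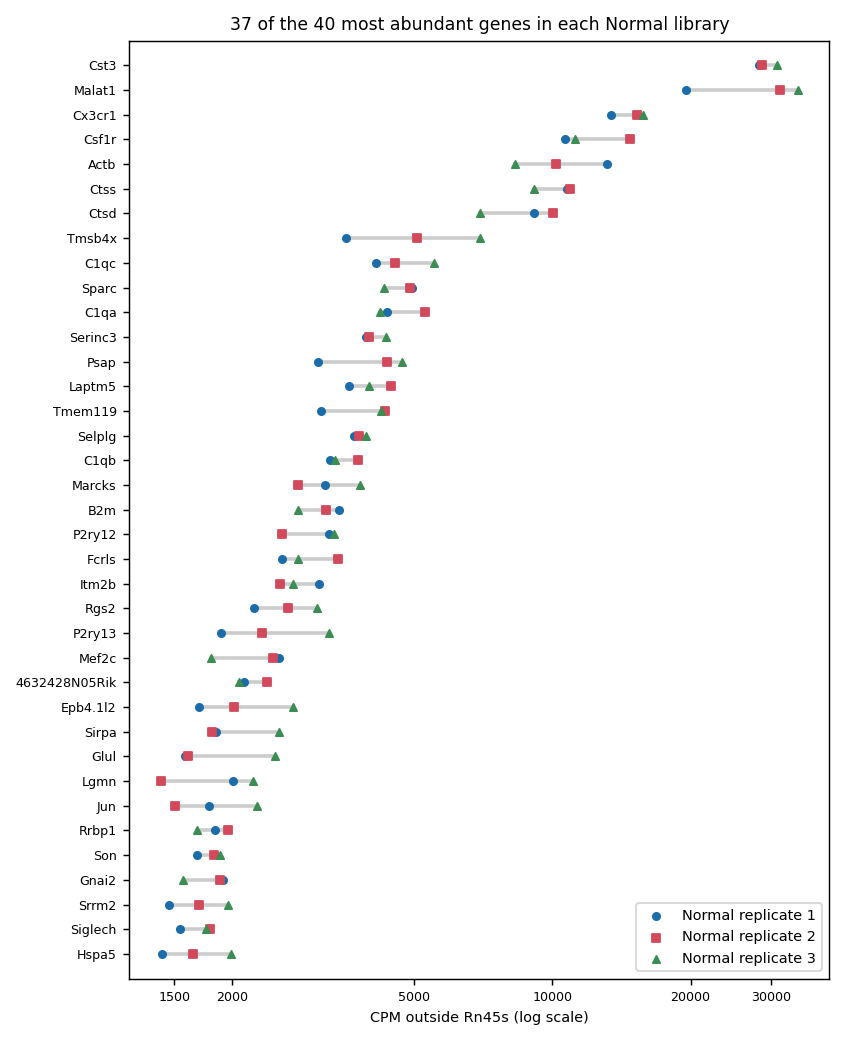
CPM outside Rn45s (log axis) of 37 of the 40 most abundant genes, ordered by mean, with 1 symbol for each Normal library and a grey bar from the lowest to the highest library. The ratio of the highest to the lowest library runs from 1.06 for Selplg to 1.96 for Tmsb4x.

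The order within this group was loose. Over all 40 genes, in 37 of 39 neighbouring places the ranges of the 3 libraries overlapped, so that the spread did not separate these neighbours. All 40 genes were nevertheless among the 100 most abundant of every library, and 30 of them were among the 40 most abundant of every library. Of the 100 most abundant genes of each library, 82 were shared by all 3.

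The cell type in the label was checked against its defining markers. P2ry12 is among them but was part of the selection, so its level adds nothing to the check. All 8 defining microglia genes were abundant: besides Cx3cr1 and Csf1r they included Tmem119 at 3127, 4317 and 4233 CPM, P2ry12 at 3257, 2571 and 3344 CPM, Fcrls at 2579, 3411 and 2792 CPM, Siglech at 1544, 1792 and 1761 CPM and the transcription factor Sall1 at 551, 434 and 484 CPM. Tmem119 encodes a surface protein of microglia and Siglech a sialic acid-binding receptor. Tmem119 was lowest in replicate 1 and P2ry12 in replicate 2, and no library was lowest for all of them.

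All 42 listed homeostatic microglia genes reached 10 CPM in every library and 39 reached 100 CPM, against 32.6% and 7.18% of all genes. Their median was 910.0 CPM, against 2.18 CPM for all genes, and together they held 101755, 108600 and 110650 CPM, a ratio of 1.09 between the highest and the lowest library. Selplg, the ligand of P-selectin, was among the steadiest at 3695, 3790.3 and 3914 CPM. Slco2b1 (1677 ± 104 CPM), Olfml3 (1313 ± 305 CPM), Rnase4 (1188 ± 112 CPM), Tgfbr1 (1093 ± 211 CPM), Golm1 (1082 ± 39.6 CPM), Gpr34 (1054 ± 181 CPM) and Trem2 (1053 ± 53.7 CPM) lay near 1000 CPM or above. The lowest members were Upk1b at 108 CPM, the uptake receptor Mertk at 77.7 CPM and Jam2 at 45.8 CPM.

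**Figure D2:**
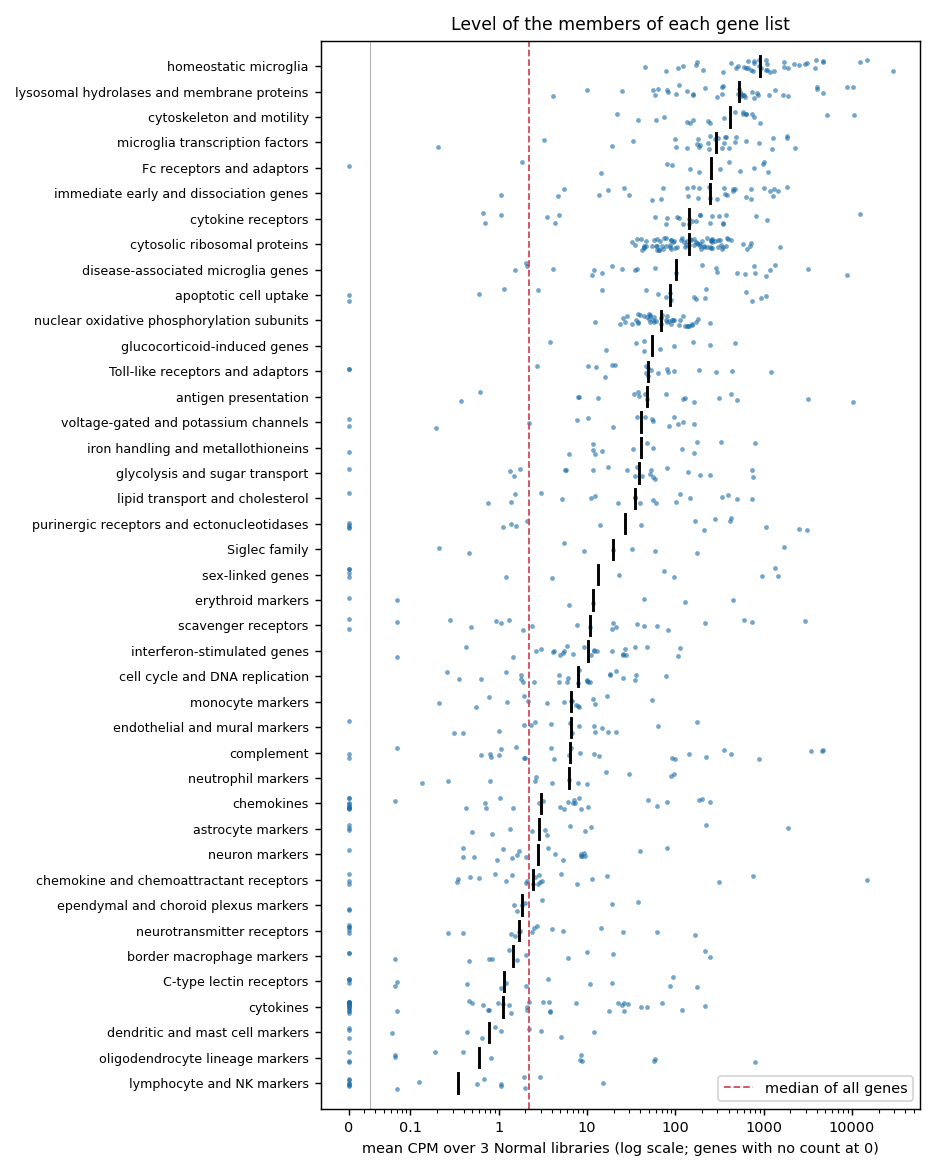
Mean CPM over the 3 Normal libraries (log axis, genes without a count drawn at 0) of every member of 41 gene lists, with 1 point for each gene, a black bar for the list's median and a dashed line for the median of all genes, 2.18 CPM. Homeostatic microglia genes have the highest median, 910.0 CPM, and lymphocyte and NK markers the lowest, 0.344 CPM.

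The DNA before the start is given for a few abundant microglia genes, beside the widely expressed lysosomal gene Ctsd. Each printed microglia gene holds a match to the motif below, so the windows are not a sample of the most abundant genes. The sequences are the 250 bases before the RefSeq transcription start on GRCm38.p6, written 5′ to 3′ on the strand of the gene, with every match to the ETS core GGAAGT or its reverse complement ACTTCC in capitals. PU.1, the product of Spi1, is the ETS factor on which macrophages depend. P2ry12 lies at chr3:59262986-59263235 on the minus strand, Fcrls at chr3:87263525-87263774 on the minus strand, Siglech at chr7:55767934-55768183 on the plus strand, C1qb at chr4:136886201-136886450 and C1qc at chr4:136892915-136893164 on the minus strand, and Ctsd, which holds no match, at chr7:142387828-142388077 on the minus strand.
P2ry12: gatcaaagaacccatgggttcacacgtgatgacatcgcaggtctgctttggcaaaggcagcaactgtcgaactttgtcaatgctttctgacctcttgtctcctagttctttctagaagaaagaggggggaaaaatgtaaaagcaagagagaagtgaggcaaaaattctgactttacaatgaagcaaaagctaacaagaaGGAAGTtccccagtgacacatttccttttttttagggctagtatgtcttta
Fcrls: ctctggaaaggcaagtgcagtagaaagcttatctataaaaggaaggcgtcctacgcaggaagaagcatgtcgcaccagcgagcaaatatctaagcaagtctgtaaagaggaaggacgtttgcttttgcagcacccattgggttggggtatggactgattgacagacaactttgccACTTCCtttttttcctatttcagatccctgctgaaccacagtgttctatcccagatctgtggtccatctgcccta
Siglech: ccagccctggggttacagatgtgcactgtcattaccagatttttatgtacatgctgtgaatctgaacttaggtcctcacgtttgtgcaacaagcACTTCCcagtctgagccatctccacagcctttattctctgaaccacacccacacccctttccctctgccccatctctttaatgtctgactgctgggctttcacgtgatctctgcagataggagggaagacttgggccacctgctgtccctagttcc
C1qb: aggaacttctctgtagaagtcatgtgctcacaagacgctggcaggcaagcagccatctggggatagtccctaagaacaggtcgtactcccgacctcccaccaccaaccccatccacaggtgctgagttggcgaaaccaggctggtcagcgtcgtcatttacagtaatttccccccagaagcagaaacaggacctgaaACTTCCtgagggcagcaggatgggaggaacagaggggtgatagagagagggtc
C1qc: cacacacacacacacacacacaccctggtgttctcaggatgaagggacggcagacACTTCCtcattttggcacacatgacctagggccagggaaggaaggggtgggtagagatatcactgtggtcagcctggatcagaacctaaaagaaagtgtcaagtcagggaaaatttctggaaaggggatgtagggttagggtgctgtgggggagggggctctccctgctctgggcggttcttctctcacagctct
Ctsd: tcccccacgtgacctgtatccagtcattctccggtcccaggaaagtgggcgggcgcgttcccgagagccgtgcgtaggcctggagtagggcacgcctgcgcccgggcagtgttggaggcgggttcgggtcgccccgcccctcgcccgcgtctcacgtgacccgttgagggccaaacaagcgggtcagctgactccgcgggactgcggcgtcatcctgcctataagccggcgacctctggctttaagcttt

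The match began 51 bases before the start in P2ry12, 53 in C1qb, 75 in Fcrls, 156 in Siglech and 195 in C1qc. The windows of Cx3cr1 and Cst3, which ranked above all of the printed genes, held none and are not printed. A match is a description of letters and not a binding site. In the same 250 bases the core was found in 7 of 23 homeostatic genes with a single window (30.4%) and in 21.0% of all 14562 such genes of the files. In the other lists examined it was found in 2 of 11 microglia transcription factors, 6 of 29 lysosomal genes, 6 of 23 immediate early and dissociation genes, 10 of 33 oxidative phosphorylation genes and 19 of 50 cytosolic ribosomal protein genes. The longer PU.1-type form GAGGAAGT, on either strand, was found in 0 of 23 homeostatic genes and 0 of 11 microglia transcription factors. It was in 3 of 50 ribosomal protein genes and 2.27% of all 14562 genes. Of the printed windows only that of C1qc holds it, as ACTTCCTC. The GABPA-type ETS form CCGGAAG was in 2 of 23 homeostatic and 16 of 50 ribosomal protein genes. The printed microglial windows were poor in CpG, with an observed to expected ratio of 0.280 for P2ry12, 0.365 for Fcrls, 0.131 for Siglech, 0.315 for C1qb and 0.112 for C1qc, whereas that of Ctsd was 0.957. The windows of the more abundant Cst3, Malat1 and Cx3cr1, which are not printed, had 0.459, 0.661 and 0.233. Ctsd was not typical of its list, since the median ratio of 29 lysosomal genes was 0.447. The median ratio of the 23 homeostatic genes was 0.365, that of 11 microglia transcription factors 0.858 and that of the ribosomal protein genes 0.848.

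Across all genes the CpG ratio followed the level up to a point. Its median was 0.201 for 4888 genes without a count, 0.342 below 1 CPM, 0.610 from 1 to 10 CPM, 0.768 from 10 to 100 CPM and 0.799 from 100 to 1000 CPM, and it was lower again, 0.609, for the 53 genes at 1000 CPM or more. The GC box GGGCGG, on either strand, was present in 18.5% of windows of genes without a count and in 67.9% of those between 100 and 1000 CPM. The TATA box TATAAA, on either strand, ran the other way, from 22.3% without a count to 5.59% between 10 and 100 CPM, and stood at 15.1% at 1000 CPM or more. The ETS core was found in 16.6% of windows without a count and in 25.7% to 26.6% of those in the classes at 10 CPM and above. These shares describe genes of 1 tissue source and carry no test.

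**Figure D3:**
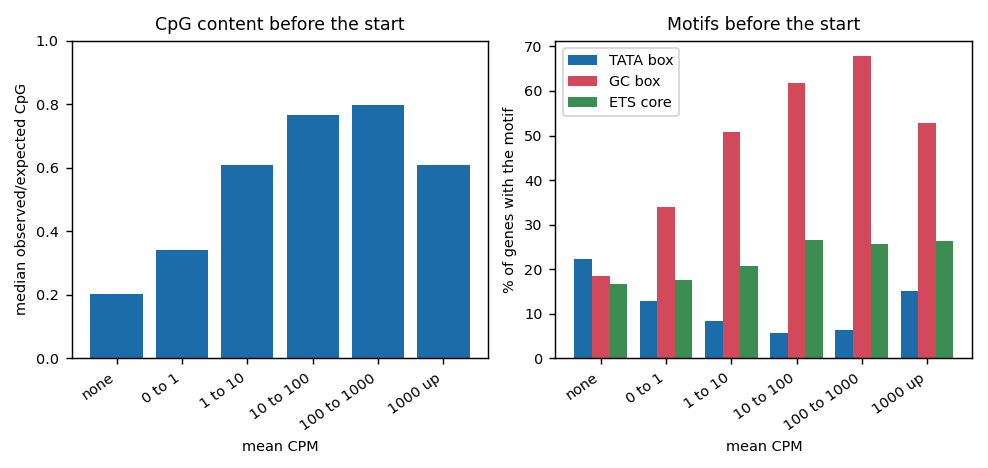
Left, median observed to expected CpG ratio, and right, percent of genes with a TATA box, GC box or ETS core on either strand, in the 250 bases before the start, for genes grouped by mean CPM in the Normal libraries (classes without a count to 1000 CPM or more). CpG and GC boxes are most frequent between 100 and 1000 CPM, at 0.799 and 67.9%.

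Of 30 listed transcription factors of microglia, 28 (93.3%) reached 10 CPM in every library, against 32.6% of all genes. Mef2c was the most abundant at 2535, 2464 and 1805 CPM, and other members were Jun at 1851 ± 384 CPM, Mef2a at 1277 ± 102 CPM, Irf8 at 1291, 1253 and 1180.5 CPM and Maf at 891 ± 143 CPM. Maf is a transcription factor of macrophages, and Irf8 takes part in microglia development. Spi1 stood lower, at 324, 298 and 213 CPM, with its lowest level in replicate 3, and Runx1 at 184 ± 29.96 CPM. Sall3 was at 333 ± 14.2 CPM, and the ratio of Sall1 to Sall3 was 1.47 ± 0.199 (n = 3). The exceptions were Bhlhe40 at 1.99, 6.40 and 1.48 CPM and Rara with 1, 0 and 2 counts.

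Of 18 listed purinergic receptors and ectonucleotidases, 10 (55.6%) reached 10 CPM in every library, against 32.6% of all genes, and 4 (22.2%) had no count, against 31.0%. P2ry12 and P2ry13, receptors for ADP, had 3057 CPM and 1899, 2322 and 3253 CPM, and their ratio fell between 1.03 and 1.71 in the 3 libraries. The lysophosphatidylserine receptor Gpr34 had 1212, 856 and 1092 CPM, the ectonucleotidase Entpd1 393, 458 and 431 CPM, the ATP-gated channel P2rx7 467, 389.9 and 379 CPM and the UDP receptor P2ry6 193, 150.4 and 155 CPM. P2rx4 was lower at 40.5 ± 12.3 CPM. P2ry1, P2ry2, Adora2a and Entpd2 had no count in any library, and Nt5e, which makes adenosine, was counted only in replicate 1, with 21 counts.

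For a gene without a count in any library, the limit that 0 counts allow was 3 counts over the 3 libraries together, or 0.199 CPM. This limit and the Wilson intervals cover counting error only and leave out the spread between the pools. The study's methods name no molecular identifiers, so a count need not be a separate molecule.

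Of 28 complement genes 10 (35.7%) reached 10 CPM in every library, near the 32.6% of all genes, and 8 (28.6%) reached 100 CPM, against 7.18%, with the C1q chains the most abundant. C1qa was at 4352, 5276 and 4198 CPM, C1qb at 3279, 3759.8 and 3354 CPM and C1qc at 4120.2, 4536 and 5528 CPM. The ratio of C1qa to C1qb was 1.33 ± 0.0757, and that of C1qa to C1qc 0.993 ± 0.209 (n = 3). Of the chains C1qc had the largest CV, 15.3%, and C1qb the smallest, 7.46%, where CV is the SD as a percent of the mean. The CR3 subunits Itgam and Itgb2 were at 882 ± 151 CPM and 225 ± 44.8 CPM, and the anaphylatoxin receptors C3ar1, C5ar2 and C5ar1 at 356 ± 28.9 CPM, 142 ± 16.4 CPM and 98.4 ± 9.96 CPM. C3 was at 9.15, 4.33 and 5.49 CPM, C4b at 5.77, 6.21 and 0.844 CPM and C2 was counted only in replicate 1. C6 and Vsig4 had no count in any library.

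Among Fc receptors Fcgr3 was the highest at 1106, 1279.8 and 955 CPM, 12.1 ± 1.501 times Fcgr2b (n = 3), the inhibitory receptor, at 90.9, 93.96 and 89.9 CPM. The activating receptors Fcgr1 and Fcgr4 had 323 ± 30.7 CPM and 14.5 ± 7.36 CPM. The adaptors Fcer1g and Tyrobp had 883, 1020.3 and 1146 CPM and 946, 745 and 641 CPM, and the kinases Lyn and Syk 993 ± 92.1 CPM and 147 ± 21.99 CPM. Ptpn6, the phosphatase SHP-1, was at 405, 404 and 408 CPM. Fcer1a, the IgE receptor chain, had no count.

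Of 21 Toll-like receptor genes and adaptors, 17 (80.95%) reached 10 CPM in every library, against 32.6% of all genes, with Unc93b1, the chaperone of the endosomal receptors, at 1195 ± 91.05 CPM and the co-receptor Cd14 at 285, 289.6 and 300.2 CPM. The endosomal receptors Tlr7, Tlr13 and Tlr3 were at 185 ± 34.1 CPM, 95.8 ± 18.8 CPM and 83.2 ± 15.1 CPM. The surface receptors Tlr2 and Tlr4 were at 52.6 ± 15.02 CPM and 46.8 ± 4.01 CPM. Tlr9 was at 6.57, 1.51 and 0 CPM, and Tlr8 and Tlr11 had no count.

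Of 32 chemokines, 9 (28.1%) had no count, near the 31.0% of all genes, and 6 (18.8%) reached 10 CPM in every library, against 32.6% of all genes. The latter were Ccl3 at 254, 206 and 278 CPM, Ccl6 at 226, 178 and 194 CPM, Ccl4 at 201, 152 and 199.9 CPM, Ccl9 at 81.5 ± 26.9 CPM, Cxcl16 at 61.8 ± 14.96 CPM and Ccl12 at 48.9 ± 21.2 CPM. The ratio of Ccl3 to Ccl4 was 1.34 ± 0.0655. Ccl3 and Ccl4 are also known to rise in microglia during dissociation of tissue. Fractalkine, Cx3cl1, the neuronal ligand of Cx3cr1, was at 0, 4.14 and 4.43 CPM. Among 25 chemoattractant receptors 3 reached 10 CPM in every library, against 32.6% of all genes, and the same 3 reached 100 CPM, against 7.18%, among them Cx3cr1 and the chemerin receptor Cmklr1 at 316, 299 and 313 CPM. Ccr2, typical of monocytes, was at 21.9, 4.52 and 23.9 CPM.

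Of 43 listed cytokines, 14 (32.6%) had no count in any library, among them Ifnb1, Il12a, Il17a, Il23a, Il2, Il4 and Csf2, a share near the 31.0% of all genes. In every library 11 (25.6%) reached 10 CPM, against 32.6% of all genes. Pdgfb was the highest at 219.7, 124 and 312 CPM, followed by Il16 at 117 ± 22.3 CPM, Il18 at 74.4, 73.1 and 64.6 CPM, Il1a at 61.9, 28.1 and 53.2 CPM and Pdgfa at 41.2 ± 16.2 CPM. Tnf was at 33.6, 25.2 and 20.7 CPM, Il1b at 18.7, 10.9 and 23.6 CPM and Il6 at 9.75, 9.23 and 3.38 CPM. Tgfb1 was at 4.78, 3.20 and 3.59 CPM, Csf1 at 15.1, 30.9 and 27.9 CPM and Igf1 at 2.99, 1.32 and 1.90 CPM, and Il34, the second ligand of Csf1r, had 0, 12 and 0 counts.

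Of 27 listed cytokine receptors, 21 (77.8%) reached 10 CPM in every library, against 32.6% of all genes. After Csf1r came Tgfbr1 at 1313, 892 and 1075 CPM, which was 3.59 ± 0.823 times Tgfbr2 at 293, 259 and 377 CPM (n = 3). Ifngr1 had 819 ± 61.2 CPM, Ifnar2 377 ± 45.1 CPM, Il6ra 345 ± 57.1 CPM, Tnfrsf1b 344 ± 75.1 CPM and Il10ra 262 ± 17.99 CPM. Csf2ra, the alpha chain of the GM-CSF receptor, was at 47.8, 204 and 179 CPM, far lower in replicate 1 than in the other libraries. Il1r1 had 0, 19 and 44 counts and Osmr 16, 0 and 0 counts.

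Scavenger receptors ranged from abundant to absent. Apart from Fcrls, which carries a scavenger domain, Lrp1 was at 743 ± 102 CPM, Cd68 at 482, 617 and 689 CPM and Stab1 at 214 ± 29.3 CPM. The classical receptors Cd36 and Msr1 were at 15.7, 9.04 and 7.81 CPM and 0.597, 0 and 0.844 CPM, and Marco and Colec12 had no count. Siglech led the Siglec family, before Cd33 at 160.0, 166 and 197 CPM and Siglece at 32.3 ± 13.6 CPM, while Siglec1 was counted only in replicate 1, with 7 counts. Among lectin receptors Clec5a was at 181, 152 and 193 CPM, Clec4a2 at 93.5 ± 14.2 CPM and the beta-glucan receptor Clec7a at 19.7, 9.98 and 28.5 CPM, and Clec4d, Clec4e, Clec10a and Cd209b had no count.

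Of 19 genes for the uptake of dying cells, 13 (68.4%) reached 10 CPM in every library, against 32.6% of all genes, and 8 (42.1%) reached 100 CPM, against 7.18%. Trem2 had 1022, 1022 and 1115 CPM, the integrin chain Itgb5 1071, 923 and 788 CPM, and the bridging proteins Pros1 and Gas6 637 CPM and 171 CPM. Mertk stood at 71.4, 74.8 and 86.97 CPM and its relative Axl at 14.7 ± 6.13 CPM. The phosphatidylserine receptors Timd4 and Havcr1 had no count.

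Genes of antigen presentation covered a wide range, and 14 of 19 reached 10 CPM in every library, or 73.7% against 32.6% of all genes. B2m, the light chain of class I molecules, was at 3432, 3205 and 2782 CPM, H2-D1 at 409, 503 and 590.4 CPM and H2-K1 at 276, 293 and 375 CPM, while the class I genes H2-M3 and H2-T23 were at 13.2 ± 1.45 CPM and 8.12 ± 6.86 CPM. H2-DMa and H2-DMb1, which help load class II molecules, were at 185, 173 and 131 CPM and 117, 129 and 123 CPM. The class II genes H2-Aa, H2-Ab1 and H2-Eb1 were at 62.5, 21.8 and 51.3 CPM, 64.1, 8.10 and 40.5 CPM and 65.9, 11.7 and 37.8 CPM, lowest in replicate 2 in each case. The invariant chain Cd74 was at 63.5, 24.3 and 13.7 CPM, and the co-stimulatory genes Cd86 and Cd80 were at 129 ± 27.4 CPM and 7.82 ± 3.34 CPM. Ciita, the regulator of class II genes, had 6, 0 and 3 counts.

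Genes of lysosomes had the second highest median of all lists, 529.7 CPM. Of 39 hydrolases and membrane proteins, 37 (94.9%) reached 10 CPM and 30 (76.9%) reached 100 CPM in every library, against 32.6% and 7.18% of all genes, and together they held 48272, 49237 and 46467 CPM. Besides Ctss, Ctsd, Psap, Laptm5 and Lgmn they included the progranulin gene Grn at 1479.8, 1962 and 1533 CPM, Ctsb at 1351 ± 130.4 CPM, Lamp1 at 1138 ± 93.4 CPM and Ctsz at 774 ± 124 CPM. Ctsk, a cathepsin of osteoclasts, was lowest at 3.58, 4.33 and 4.43 CPM.

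Some genes known to rise in microglia near plaques and lesions were already abundant in these untreated cells. Of 25 listed disease-associated genes, 17 reached 10 CPM and 12 reached 100 CPM in every library, against 32.6% and 7.18% of all genes, and several of the listed genes also stand in other lists. Apoe was at 473, 395 and 634 CPM, Cd9 at 291, 212 and 365 CPM and Cd63 at 293 ± 17.6 CPM. Genes more restricted to that state were low, with Lpl at 27.1, 23.3 and 54.7 CPM, Itgax at 7.36, 14.9 and 13.7 CPM, Spp1 at 3.38, 3.95 and 5.07 CPM, Gpnmb at 0.597, 1.88 and 3.59 CPM and Cst7 at 2.39, 0.753 and 1.48 CPM.

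Of 26 interferon-stimulated genes none reached 100 CPM in every library, against 7.18% of all genes, while 9 (34.6%) reached 10 CPM, near the 32.6% of all genes. Their median was 10.1 CPM, above the 2.18 CPM of all genes. Ifi27 and Irf9 led at 102, 141 and 97.5 CPM and 93.7, 112 and 113 CPM, and Ifit3 was at 23.7, 34.3 and 24.7 CPM. Isg15 was at 4.98, 8.66 and 4.22 CPM and Irf7 at 4.18, 0 and 8.23 CPM. Ifit1 was counted only in replicate 3, with 43 counts.

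Of 25 genes of the cell cycle and DNA replication none reached 100 CPM in every library, 6 reached 10 CPM and 18 (72.0%) reached 1 CPM, against 7.18%, 32.6% and 46.6% of all genes. Their median was 7.90 CPM, above that of all genes, with sums of 321, 319.9 and 321 CPM, a ratio of 1.00 between highest and lowest. The replication helicase gene Mcm3 was the highest at 69.9, 95.5 and 69.03 CPM, Mki67 was at 6.17, 15.1 and 11.6 CPM and Top2a at 7.36, 6.21 and 10.1 CPM. Aurkb had 2, 2 and 0 counts.

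In metabolism the fructose transporter Slc2a5 was the highest of the listed sugar transporters at 743, 788 and 714 CPM, against 42.98, 30.9 and 50.9 CPM for the glucose transporter Slc2a1, and Hk2 was the highest hexokinase at 652, 758 and 797 CPM. The low values of Gapdh, 22.3, 30.3 and 32.9 CPM, and of Eno1, which had no count, stood beside near-identical copies elsewhere. The last 300 transcript bases of Gapdh matched 4 other annotated genes, and those of Eno1 matched 1, at 95% identity or more over at least 200 bases. The authors counted reads from unique and multiple alignments, and how a read with several alignments was divided was not tested, so these 2 levels are uncertain. The same doubt holds for other reported genes with such copies, for example H2-T23 with 2 copies. Il2, C4b, Ly6c2, Cd63 and Hba-a1 had 1 copy each.

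All 79 cytosolic ribosomal protein genes reached 10 CPM in every library, against 32.6% of all genes, from 32.2 CPM for Rps27 to 1523 CPM for Rplp1. The 40 with at least 1 near-identical copy had a median of 109 CPM, and the 39 without had 199.99 CPM. All 45 nuclear subunits of oxidative phosphorylation were detected at 1 CPM or more in every library, against 46.6% of all genes, with a median of 67.9 CPM and Atp5a1 highest at 246 ± 41.5 CPM. None of the 40 most abundant genes and none of the 42 homeostatic genes had such a copy. The cholesterol exporter Abca1 was at 389.7 ± 24.3 CPM, Npc2 at 734 ± 94.8 CPM, and the ferritin chains Fth1 and Ftl1 at 799 ± 61.1 CPM and 329 ± 7.32 CPM, with 1 copy for Ftl1.

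Immediate early genes, heat-shock genes and other genes known to rise during dissociation, Ccl3, Ccl4 and Cxcl2 among them, formed 1 list. Digestion of the brain for 30 minutes at 37 °C preceded the sort, and its part in these levels was not tested. Of 33 listed genes, 29 (87.9%) reached 10 CPM and 21 (63.6%) reached 100 CPM in every library, against 32.6% and 7.18% of all genes, and their sums were 12676, 12816 and 18114 CPM. Jun was at 1782, 1507 and 2265 CPM, Rhob at 1154, 921 and 1831 CPM, Hspa1a at 1039.6, 1379.8 and 1439 CPM, Egr1 at 386, 230.5 and 806 CPM and Fos at 214, 98.9 and 406 CPM. Among the 30 members with a mean of 10 CPM or more, 27 (90.0%) were highest in replicate 3, against 34.1% of all 8608 genes at that level. Fosb, at 15.5, 18.6 and 54.9 CPM, and Egr2, at 6.77, 8.28 and 26.4 CPM, were also highest in replicate 3.

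Markers of other cells were summed by library to see which other transcripts the samples held. The sort had selected for CD45, CD11b and P2ry12, and the source of these transcripts was not tested. Border macrophage markers came to 603, 527 and 390.1 CPM, mostly from Cbr2 and Stab1. The defining members of that list were low, with Mrc1 at 19.5, 13.7 and 25.5 CPM, Lyve1 at 11.3, 10.4 and 8.44 CPM, Pf4 at 11.9, 0.941 and 5.28 CPM, Cd163 at 1.59, 0 and 2.32 CPM, F13a1 at 0.398, 3.95 and 0.422 CPM and Ms4a7 at 0, 0 and 2.53 CPM. Monocyte markers came to 177, 130.1 and 138 CPM, with Nr4a1 highest at 63.9, 45.8 and 54.7 CPM and Ly6c2 at 5.97, 0 and 0.422 CPM, Plac8 at 10.9, 6.21 and 3.17 CPM and Chil3 at 14.9, 0 and 5.07 CPM. Lymphocyte and NK markers came to 26.3, 20.1 and 29.98 CPM, of which the B cell gene Cd79b gave 15.1, 10.2 and 19.6 CPM, and Cd3e, Cd3g, Cd4 and Ncr1 had no count in any library.

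Neutrophil markers set replicate 1 apart. They summed to 691, 51.97 and 59.7 CPM, a ratio of 13.3 between the highest and the lowest library, and 12 of 13 members were highest in replicate 1, against 33.2% of all 16037 genes with a count. S100a9 had 256, 17.3 and 16.04 CPM and S100a8 235, 16.2 and 18.4 CPM, Ngp 82.8, 1.88 and 5.28 CPM, Camp 42.98, 1.13 and 5.49 CPM and Lcn2 18.7, 0 and 0.211 CPM. These genes encode granule and calprotectin proteins. Without replicate 1, S100a8 and S100a9 lay between 16.04 and 18.4 CPM. Ly6g was not analysed here.

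Neuron markers moved the same way, with sums of 405, 89.6 and 72.4 CPM and 16 of 20 members highest in replicate 1, against the same 33.2%. Meg3, a long non-coding RNA abundant in neurons, had 212, 12.4 and 17.3 CPM, Syt1 24.5, 3.39 and 0 CPM, Nrgn 19.7, 5.27 and 0.633 CPM and Nefl 12.9, 0 and 0 CPM. Erythroid markers summed to 826, 604 and 491 CPM, mainly from Hba-a1 at 616, 408 and 321 CPM. The homeostatic list summed to 101755 CPM in the same library, the lowest of the 3 but within 1.09-fold of the others. Replicate 1 also held the largest share of Rn45s, and whether these features of replicate 1 are linked was not tested.

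In the glial lists a few genes gave most of the sum. The astrocyte list came to 1820.1, 1859 and 2766 CPM, of which Glul gave 1583, 1602 and 2484 CPM and Slc1a3 178, 227 and 255 CPM, whereas Gfap and Aldh1l1 had no count, Aqp4 had 3.38, 13.9 and 1.69 CPM and Slc1a2 23.9, 0 and 9.499 CPM. The oligodendrocyte list came to 1088, 920.4 and 835 CPM, of which the transferrin gene Trf gave 909, 805 and 697 CPM, the myelin genes Mag 59.1, 39.7 and 78.3 CPM and Cnp 71.8, 61.9 and 39.5 CPM and Mbp 23.9, 0 and 1.90 CPM, while Mog, Olig1 and Olig2 had no count. Endothelial and mural markers came to 375, 349 and 329 CPM, with Bsg at 191, 182 and 155 CPM, Pecam1 at 73.03, 69.5 and 48.97 CPM, Flt1 at 8.76, 3.39 and 12.03 CPM, Cldn5 at 6.77, 0.941 and 4.01 CPM and Rgs5 at 1.99, 3.01 and 0.844 CPM. The choroid plexus gene Ttr was at 38.2, 25.2 and 50.2 CPM and Foxj1 of ependymal cells at 0.199, 0 and 4.22 CPM. Dendritic and mast cell markers came to 12.1, 29.2 and 34.8 CPM.

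**Figure D4:**
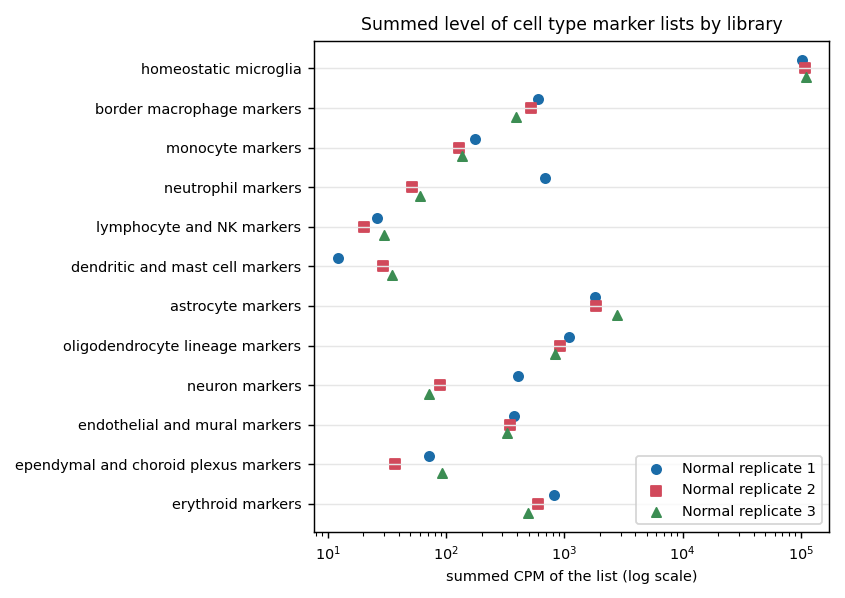
Summed CPM (log axis) of the homeostatic microglia list and of marker lists of 11 other cell types, with 1 symbol for each Normal library. Replicate 1 stands apart for neutrophil markers, at 691 CPM against 51.97 and 59.7, and for neuron markers, at 405 CPM against 89.6 and 72.4.

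Sex-linked genes went with the female sex of the mice, apart from low counts at 2 Y-linked entries. Xist, transcribed from the inactive X chromosome, had 1530.1, 1253 and 1527 CPM. The Y-linked genes Uty, Eif2s3y, Sry and Zfy1 had no count, while Ddx3y had 39, 0 and 20 counts and Kdm5d 14, 0 and 4 counts. Tsix, at chrX:103431517-103484957 on the plus strand of GRCm38 and opposite to Xist, had 1416, 1147 and 1433 CPM, a ratio to Xist of 0.927 ± 0.0116. The use of strand in counting is not given in the sources used here, and reads of a gene and its antisense partner cannot be told apart without it.

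The same limit applied to 593 pairs of genes on opposite strands that share at least 75 exonic bases and both had a mean of 10 CPM or more. Among the 40 most abundant genes 5 had an opposite-strand partner of that kind, at any level of the partner. Of these, Csf1r overlapped Hmgxb3 by 873 bases, and Hmgxb3 had 56.7 ± 7.05 CPM. Some less abundant genes reported above had an opposite-strand partner at a higher level. For example, H2-DMa overlapped Brd2, at 478 CPM, by 360 bases. Cnp overlapped Dnajc7, at 236 CPM, by 154 bases, and Il1a overlapped Gm14023, at 123 CPM, by 222 bases. Whether their levels hold reads of the partner was not tested. Snora81, at 457, 180.4 and 97.9 CPM, lies within Eif4a2 on the same strand, which had 191, 107 and 171 CPM.

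Families that serve smell, taste, skin and secretion, 8 in all, gave 1522 of the 7200 undetected genes (21.1%), and provisional names gave another 1660 (23.1%). Of 1125 olfactory receptor genes 1043 (92.7%) had no count, of 338 vomeronasal receptor genes 295 (87.3%), of 53 keratin-associated protein genes 52 (98.1%), and of 15 trace amine receptor genes all 15. Over all genes 31.0% had no count. In contrast all 46 proteasome subunit genes had a count and 45 of them reached 1 CPM in every library, and of 368 Zfp zinc finger genes 17 (4.62%) had none. Some families held single members at higher levels, such as the crystallin gene Crybb1 at 123 ± 18.7 CPM, the collagen gene Col27a1 at 440.3 ± 81.1 CPM and the olfactory receptor gene Olfr920 at 8.36, 11.3 and 12.03 CPM. Of 39 Hox genes 26 (66.7%) had no count, and the highest, Hoxb4, had 11.4 ± 3.99 CPM.

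By annotated kind, protein-coding genes held 95.6%, 94.7% and 94.5% of the counts and long non-coding genes 3.21%, 4.11% and 4.35%. No count was found for 28.3% of 20481 protein-coding and 53.3% of 1823 long non-coding genes. Besides Malat1, Xist and Tsix the highest long non-coding genes were 2900060B14Rik at 2037, 905 and 398 CPM and Kcnq1ot1 at 362 ± 23.5 CPM, and Neat1 was at 210.0 ± 14.8 CPM. The class follows the matched annotation, which also placed Zswim6, at 330 CPM, and Ifi30, at 216 CPM, in it. The shares above include such entries.

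Agreement between libraries was close for abundant genes and loose for rare ones. Over all genes Spearman's rho, across genes that are not independent replicates, ran from 0.923 to 0.928 for the 3 pairs of libraries. The median CV was 74.4% for genes with a mean from 1 to 10 CPM, 23.97% from 10 to 100 CPM, 13.7% from 100 to 1000 CPM and 13.2% at 1000 CPM or more. Counting error alone would give medians of 24.7%, 7.89%, 3.38% and 1.11% in these classes. The common biological coefficient of variation, estimated by edgeR over 10217 genes, was 29.2%.

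Counts of rare genes came in clumps. Of 1958 genes with 11 to 30 counts over the 3 libraries, 611 (31.2%) had all of them in a single library. Counts in a single library only were found for 707 genes in replicate 1, 626 in replicate 2 and 1149 in replicate 3, of which 15, 10 and 14 had over 30 counts. Plxna2, a semaphorin co-receptor, was the sole such gene at a mean of 5 CPM or more, with 92, 0 and 0 counts. At least 1 count was found for 13541, 13505 and 14314 genes, and after thinning to the same total for 13541, 13462 and 14314.

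Of 3811 genes with a mean of 50 CPM or more, 210 (5.51%) differed more than 2-fold between their highest and lowest library, 65 of them highest in replicate 1, 42 in replicate 2 and 103 in replicate 3. The largest CVs belonged to S100a9 (143%), Meg3 (141%), S100a8 (140%), Lrrc17 (108%) and BC024978 (90.9%). Lrrc17 was at 241, 47.3 and 33.1 CPM, with replicate 1 high, and BC024978 at 7.96, 53.7 and 114 CPM, with replicate 1 low. Snora81, 2900060B14Rik, the kinase anchor gene Akap5, Fos, Snord89, Rraga, Egr1, the co-chaperone gene Bag3, Cnep1r1, Lrpprc, Usf2, Csf2ra, Platr17, Paics and Cracr2b followed, with CVs from 76.7% for Snora81 to 57.6% for Cracr2b. The transcription factor gene Usf2 was at 114, 521 and 490.2 CPM and Lrpprc at 27.5, 109 and 129 CPM, again low in replicate 1 alone. Akap5 was at 271, 102 and 68.8 CPM and Snord89 at 364, 189 and 91.4 CPM, with replicate 1 highest.

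At the other end, 263 of the 3811 genes (6.90%) had a CV under 5%. The smallest were those of the ubiquitin ligase gene Ubr4 at 201, 202 and 200.3 CPM (0.335%), Ptpn6 (0.521%), Gpr108 at 84.03 ± 0.593 CPM, Glmp at 90.9 ± 0.689 CPM, Pea15a at 182 ± 1.49 CPM and Uvssa at 81.1 ± 0.682 CPM. Eif3g, Sun2, Fyttd1, Shisa5, Tsc22d4, Surf2, Dhx9, Slc25a3, D15Ertd621e, Dnajc1, Serinc4, Gltp, Zc3h11a and Rhog completed the 20 steadiest, up to 1.65% for Rhog. For Ubr4 counting error alone would give 3.15%, so that these values lay below what counting allows on average and do not rank the genes by stability.

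**Figure D5:**
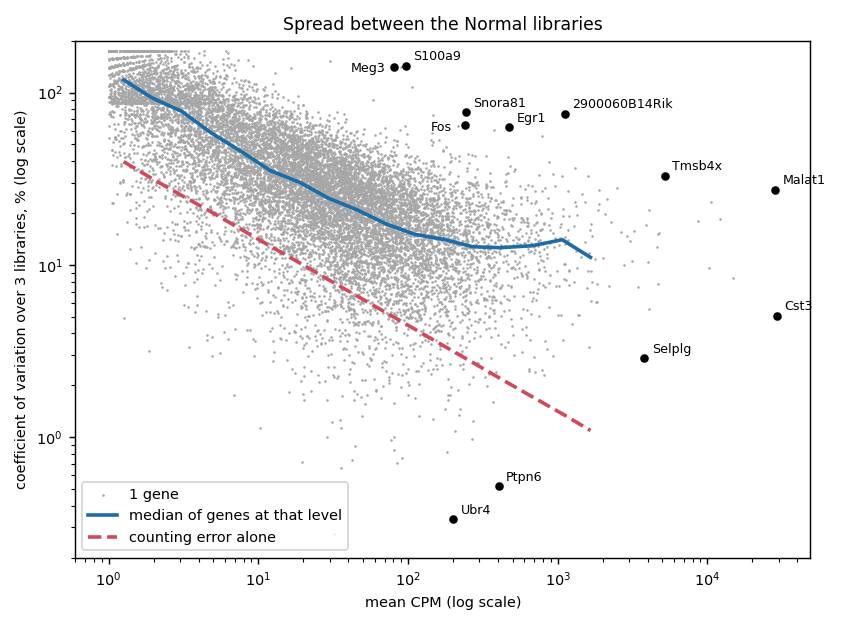
Coefficient of variation over the 3 Normal libraries in percent (log axis) against mean CPM (log axis), with 1 grey point for each gene at 1 CPM or more, the median of genes at each level in blue and the part counting error alone would give as a dashed red line. S100a9 and Meg3 lie near 140%, and Ubr4 and Ptpn6 lie below the counting line, at 0.335% and 0.521%.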

How the data were processed

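RNA of sorted brain microglia was measured in 3 Normal libraries, and the 6 libraries of treated mice were not used. The deposited values are raw read counts per gene, which the authors made from single 75-base QuantSeq reads with 500 ng of RNA input. The submitters' processing notes name Bowtie2, bedtools and the build mm10, without versions. Counts came from unique and multiple alignments. The gene annotation and the use of strand are not given in the sources used here. The 35 symbols on 79 of 23282 entries were summed. Rn45s was left out of counts and library sizes. CPM was computed with TMM factors (1.03, 0.994 and 0.975) in edgeR 4.0.16 under R 4.3.3, and DESeq2 1.42.0 size factors were an alternative. The common biological coefficient of variation was taken with an intercept-only design after filterByExpr (minimum count 10, minimum total 15). With 1 condition there was no contrast, no test and no p-value. The study's methods name the 3 pools independent biological replicates, and the spread between them holds biological and technical differences together. The scripts were tested on simulated data.

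The libraries, 41 gene lists and name families were chosen with earlier results of these data known. Of 853 listed symbols 5 were not matched (Ly6g, Trac, Trbc2, Ighm and Igkc) and are not analysed here. Genes were named if they were among the 40 most abundant, among the 20 most or least variable at 50 CPM or more, counted in 1 library only at a mean of 5 CPM or more, among the 10 highest in no list, or in a list, up to about 10 for each. Pairs of overlapping or host genes were named after their values were seen, as were single members of families and of the annotated kinds of gene. Symbols were matched to GENCODE M21 on GRCm38 for 22807 of 23237 genes, and copies were sought with blastn 2.17.0. Of the genes, 17217 had a RefSeq promoter window on GRCm38.p6, and 14562 had a single window of full length. Some genes that this rule names are not reported here. The alternatives were other scaling, Rn45s kept, entries kept apart, thinning, other minimum levels, and each library left out.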

Additional observations from a re-analysis of the deposited data

How the results depend on the processing

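The counts of detected and undetected genes stayed within 1.5 times under every alternative run, from 8913 (a minimum of 5 CPM) to 11426 (without replicate 1) beside 10830 genes at 1 CPM, and from 7208 (thinned libraries) to 8349 (without replicate 3) beside 7200 genes without a count. The direction of these shifts was set by the rules. A higher minimum is stricter, and a library left out relaxes the 1 CPM rule. A library left out or thinned cannot lower the number of genes without a count. With Rn45s kept, the 100 most abundant entries held 44.9% of the counts in place of 28.3%, and the mean CPM of 35 of the 40 most abundant genes moved by more than 1 SD, since Rn45s then counts in every library size. The median CV of genes at 10 CPM or more, 20.9%, was 15.8% to 17.7% with a replicate left out, and 25.98% over all genes with a count in all 3 libraries. The common biological coefficient of variation, 29.2%, was 60.1% over all genes with a count. Leaving out a replicate leaves a CV of 2 libraries, and the wider gene sets add rare genes. For each of the 40 most abundant genes the mean moved by less than 1 SD under other scaling, entries kept apart and thinning, while leaving out 1 of 3 replicates cannot move a mean by that much. No paired analysis was possible because only the untreated group was used, so that no groups shared replicate numbers. Under about 10 CPM the 3 libraries often disagreed on whether a gene was present, and from 1 to 10 CPM the median CV of 74.4% was above the 24.7% that counting error at this depth would give. The cause was not tested, and 3 pools of 1 condition give no test.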

Other observations

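Of 373 solute carrier genes 89 (23.9%) had no count, against 31.0% of all genes, and 184 (49.3%) reached 1 CPM in every library, near the 46.6% of all genes, with Slc29a3, a lysosomal nucleoside transporter, highest at 819.8 ± 75.5 CPM, before Slc2a5 and Slc16a6 at 681 ± 47.1 CPM. The potassium channel gene Kcnk6 was at 161, 170.0 and 153 CPM and Kcnk13, whose channel sets the resting potential of microglia, at 48.8, 48.4 and 67.3 CPM. The proton channel gene Hvcn1 was at 139, 90.4 and 92.9 CPM, while Kcna3 and Kcna5 had no count in any library.

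Among transmitter receptors the adrenergic receptor Adrb1 was the highest at 156, 183 and 162 CPM. Gabbr1, a subunit of the GABA-B receptor, was at 52.5, 76.3 and 58.1 CPM. The cannabinoid receptor Cnr2 was at 8.16, 13.4 and 21.5 CPM. Of 20 listed receptors 5 had no count, a share near the 31.0% of all genes, namely Adra1a, Chrna7, Drd2, Grik2 and Htr1b.

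Glucocorticoid-induced genes were present in all libraries. The receptor Nr3c1 was at 246 ± 36.96 CPM, Sgk1 at 586, 418 and 414 CPM, Tsc22d3 at 76.6, 58.6 and 63.3 CPM and Fkbp5 at 31.8, 49.7 and 50.2 CPM.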
